A study of Mus musculus with 8 samples.

Results

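The Hox genes of the A, B, C and D clusters were read out in tubuloids, which are cultures of kidney tubule fragments from young mice, embedded in a Matrigel basement membrane gel. All 39 protein-coding members were chosen by name, as the rows whose symbol is Hoxa, Hoxb, Hoxc or Hoxd followed by a number, out of 24063 genes in the count tables. The number of members was 11 in cluster A, 10 in cluster B, 9 in cluster C and 9 in cluster D. Every library carried the genotype Pkd2 fl/fl Pax8rtTA TetOCre mTmG. In this system the Pax8 promoter, active in renal tubule epithelium, drives a doxycycline-dependent transactivator, and Cre then deletes the floxed exons of Pkd2, the gene of polycystin-2, only in cells that use Pax8. mTmG is a membrane reporter that turns from red to green after recombination. One group received doxycycline (DOX, n = 4 libraries) and the other its vehicle dimethyl sulfoxide (DMSO, n = 4 libraries), starting on day 3 of culture and lasting 3 days, and RNA was taken on day 7. The kidneys were labelled as postnatal day 7 to 10, an age on which the sources disagree, since the study's methods give a younger range. The culture medium contained renal growth factors. No label ties a library to an animal, so the p-values below measure the spread between these samples, which may be technical.

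Hox genes encode homeodomain transcription factors, and their order along each cluster matches the order of the body regions they pattern, from head to tail. Genes at the same position in different clusters are paralogues and share a number. Retinoic acid and the trithorax group open the clusters, the Polycomb group keeps them closed, and Hox proteins bind DNA together with TALE homeodomain partners such as the Meis proteins. In the metanephric kidney the group 11 paralogues act with Eya1 and Pax2 to switch on Gdnf, and regulatory sequence of Hoxb7 is used widely to mark the ureteric bud and its collecting ducts.

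The libraries held 63922677 to 102716313 summed counts. DMSO 20 and DOX 19 had a count for 13243 and 13599 genes, against 17054 to 17903 genes in the other 6 libraries. Pkd2 itself averaged 6130 ± 1114 normalised counts with DMSO and 4946 ± 772 with DOX (SD, n = 4), a log2 fold change of -0.31 with an SE of 0.215 and a DESeq2 adjusted p of 0.999, and counts over the whole transcript do not isolate the floxed exons. By western blot, the study reported significantly less polycystin-2 protein in tubuloids after doxycycline. Some protein and some red cells, presumed not to have recombined, remained, so the deletion was partial. The epithelial markers Cdh1, Epcam, Krt8, Krt18, Cdh16 and Pax8 were present in every library. Aqp2, Lrp2 and Slc34a1, which mark mature principal cells and proximal tubule, were at or below 0.0563 TPM in all 8 libraries. The whole list of 6 proximal tubule markers summed to 5.74 to 23.7 TPM, and Slc5a2 was the 1 member with a mean of at least 1 TPM.

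Levels are given in TPM, which are scaled for transcript length and add to the same total in every library. Of the 39 Hox genes, 29 had a mean of at least 1 TPM over the 8 libraries. This was 76.3% of the 38 Hox genes with any count, compared with 69.7% of the 19634 counted genes in all. The mean was at least 10 TPM for 15 Hox genes and between 1 and 10 TPM for 14. Together the Hox genes made up 0.0563% to 0.0955% of all TPM. The total was 604, 955, 563 and 899 TPM in DMSO 3, 5, 15 and 20, a mean of 755 ± 200.3 TPM (SD, n = 4). It was 565, 898, 852 and 713 TPM in DOX 9, 12, 19 and 21, a mean of 757 ± 150.3 TPM (SD, n = 4). Both groups spanned nearly the same range. Below, values of the 4 DMSO libraries are always listed in the order 3, 5, 15 and 20, and those of the 4 DOX libraries in the order 9, 12, 19 and 21.

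**Figure D1:**
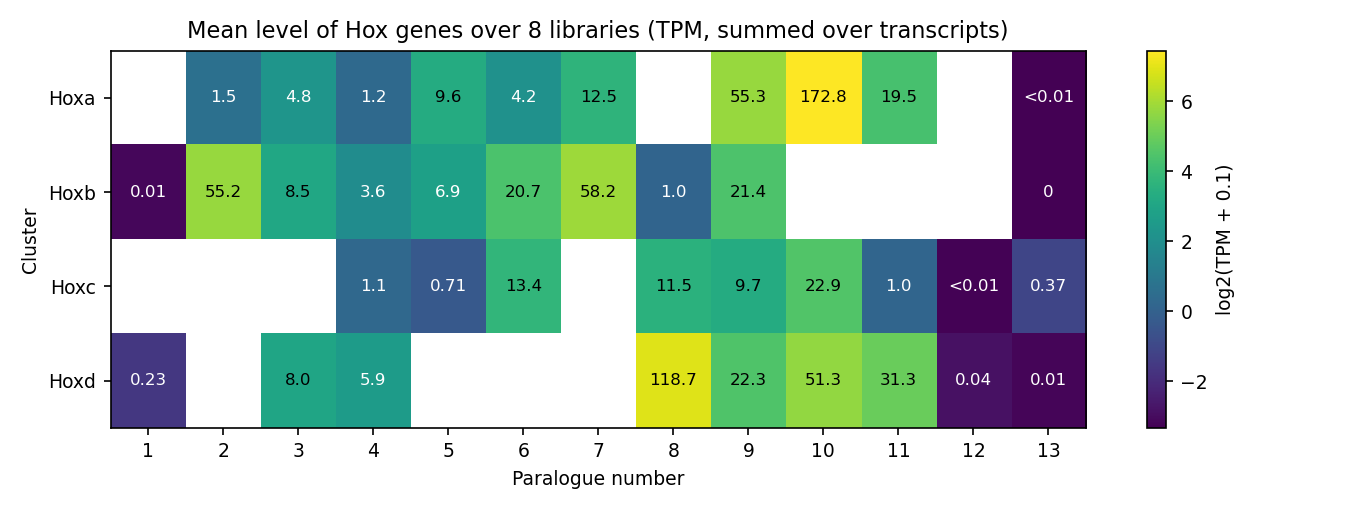
Mean TPM of 38 Hox genes over 8 libraries, with clusters as rows and paralogue numbers as columns; colour is log2(TPM + 0.1) and white squares are positions without a gene or without a value shown. The highest squares are Hoxa10 (173 TPM) and Hoxd8 (119 TPM), and the squares of groups 12 and 13 all lie below 1 TPM.

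The posterior genes of groups 9 to 11 gave the largest share of Hox RNA in 6 of the 8 libraries, and the most posterior genes were nearly silent. Groups 9 to 11 held 10 of the members and gave 39.4% to 67.2% of the Hox TPM of a library. Groups 4 to 8, with 15 members, gave 22.2% to 45.6%, and groups 1 to 3, with 8 members, gave 6.98% to 14.9%. In DMSO 3 and DMSO 5 the middle groups exceeded the posterior ones. The 6 genes of groups 12 and 13 together reached 0 to 2.08 TPM. Group 10 (Hoxa10, Hoxc10 and Hoxd10) was the highest paralogue group in all 8 libraries, at 20.9% to 41.2% of the Hox TPM, and at 18.7% to 40.1% with only 1 transcript counted per gene.

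Hoxa10, best known for its role in the uterus, had the highest mean of all, 173 ± 53.1 TPM (SD, n = 8). Its values were 103, 155, 171 and 255 TPM in the DMSO libraries and 98.6, 194, 206 and 200 TPM in the DOX libraries. DMSO 20 was highest, and DMSO 3 and DOX 9 were lowest. Hoxd8 came next with a mean of 119 ± 30.6 TPM. Its values were 123, 182, 81.5 and 95.8 TPM in the DMSO libraries and 109, 138, 111 and 109.5 TPM in the DOX libraries. DMSO 5 was highest, and 3 of the 4 DOX libraries lay between 109 and 111 TPM. The next genes were Hoxb7 (mean 58.2 TPM), Hoxa9 (55.3), Hoxb2 (55.2), Hoxd10 (51.3), Hoxd11 (31.3), Hoxc10 (22.9), Hoxd9 (22.3) and Hoxb9 (21.4). The ranges over the 8 libraries overlapped between every pair of neighbours in this order.

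Of the 39 genes, 5 had more than 1 transcript in the tables (Hoxa9, Hoxa10, Hoxb3, Hoxd8 and Hoxd11), and reads that lie in several isoforms appeared to be counted for each, which raises the sum. With 1 transcript per gene the order was Hoxa10 (mean 94.7 TPM), Hoxb7 (58.2), Hoxb2 (55.2), Hoxd10 (51.3), Hoxd8 (38.3) and Hoxa9 (27.1). Hoxa10 was the highest Hox gene in 5 of 8 libraries on either scale. Hoxd8 fell from place 2 to place 5, and Hoxd11 from place 7 to place 12, with a mean of 15.1 TPM.

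**Figure D2:**
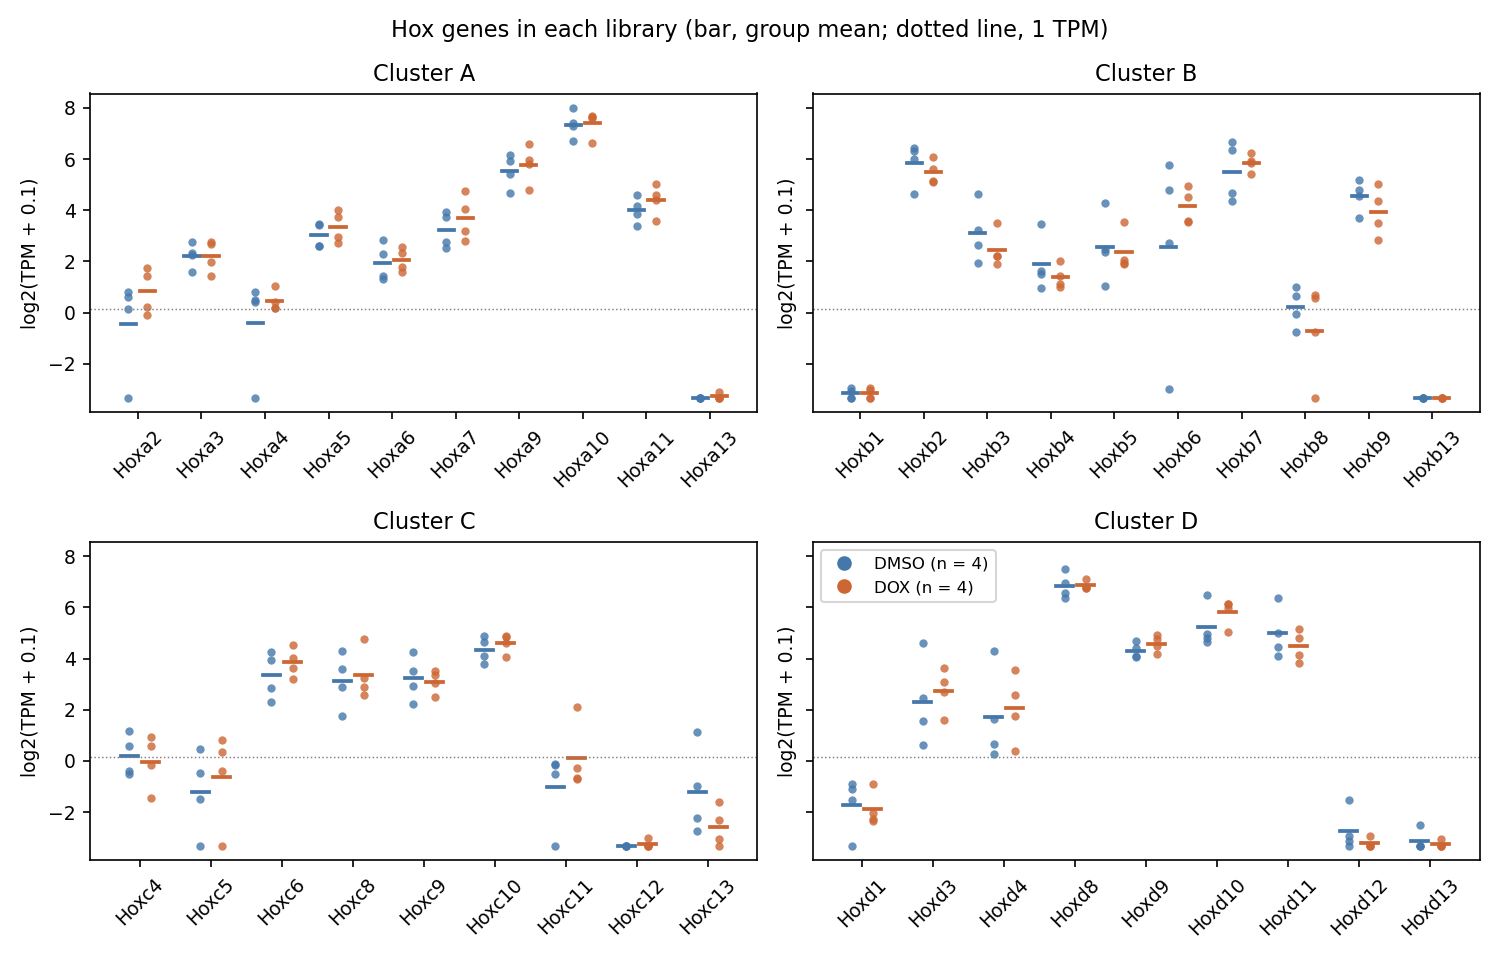
Level of 38 Hox genes in each library as log2(TPM + 0.1), by cluster, with DMSO libraries in blue and DOX libraries in orange (points, 4 libraries each; bars, group means; dotted line, 1 TPM). Levels rise along cluster A from Hoxa2 to Hoxa10 apart from dips at Hoxa4 and Hoxa6, and the blue and orange points of every gene shown overlap.

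Cluster A lies on chromosome 6 (chr6:52155367-52260880, GRCm38.p6, the assembly also called mm10), and 9 of its 11 genes reached a mean of 1 TPM. Hoxa9, a driver gene of acute myeloid leukaemia, had 25.2, 60.2, 42.6 and 72.2 TPM in the DMSO libraries and 27.2, 62.8, 95.8 and 56.1 TPM in the DOX libraries. Hoxa11, 1 of the kidney-patterning group 11 genes, had 17.6, 14.5, 24.1 and 10.5 TPM in the DMSO libraries and 23.9, 32.0, 11.8 and 21.1 TPM in the DOX libraries. Hoxa7 had 5.65, 13, 6.58 and 15.1 TPM in the DMSO libraries and 6.92, 16.6, 26.9 and 9.00 TPM in the DOX libraries. Each of these genes was present in all 8 libraries, and Hoxa11 was lowest in DMSO 20 and DOX 19, the libraries with the most Hoxa9. Hoxa5, needed for lung and airway development, had 5.96, 10.7, 5.97 and 10.9 TPM in the DMSO libraries and 6.4, 15.9, 13.2 and 7.56 TPM in the DOX libraries. Hoxa3, needed for the thymus and parathyroid, had 2.86, 4.95, 4.66 and 6.62 TPM in the DMSO libraries and 2.62, 6.27, 6.73 and 3.85 TPM in the DOX libraries. Hoxa6 had 2.38, 4.75, 2.57 and 6.95 TPM in the DMSO libraries and 2.88, 5.89, 4.94 and 3.35 TPM in the DOX libraries. These 3 genes differed by less than 3-fold between the lowest and the highest library. The annotated span of Hoxa3 overlaps those of Hoxa4, Hoxa5 and Hoxa6, so reads there could be split either way. Hoxa2, which specifies the second pharyngeal arch, had 0.992, 1.62, 1.43 and 0 TPM in the DMSO libraries and 0.848, 2.58, 3.27 and 1.05 TPM in the DOX libraries. Hoxa4 had 1.24, 1.32, 1.65 and 0 TPM in the DMSO libraries and 1.24, 1.95, 1.03 and 1.02 TPM in the DOX libraries. Both were detected in every library but DMSO 20. A count of 0 allows up to 3 counts, or 0.0292 to 0.0469 CPM (counts scaled to library size) in these libraries, and these limits cover counting error only.

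The step from Hoxa11 to its posterior neighbour Hoxa13, a gene of the limb and the lower urogenital tract, was complete. Hoxa11 averaged 19.4 TPM, with 730 to 3561 counts per library, and Hoxa13 had 1 count in DOX 9 and 0 in the other 7 libraries. In cluster D the step lay between Hoxd11, which averaged 31.3 TPM, and Hoxd12, with 0 to 30 counts per library. The 250 bases upstream of the annotated start of these 4 genes are shown because the expressed and the silent gene lie next to each other; CpG dinucleotides are in capitals. The sequences are those of RefSeq on GRCm38.p6, written 5′ to 3′ on the strand of the gene, which is the minus strand for cluster A and the plus strand for cluster D. They cover chr6:52245811-52246060 for Hoxa11, chr6:52260881-52261130 for Hoxa13, chr2:74682073-74682322 for the downstream of the 2 listed starts of Hoxd11, and chr2:74674763-74675012 for Hoxd12.
Hoxa11: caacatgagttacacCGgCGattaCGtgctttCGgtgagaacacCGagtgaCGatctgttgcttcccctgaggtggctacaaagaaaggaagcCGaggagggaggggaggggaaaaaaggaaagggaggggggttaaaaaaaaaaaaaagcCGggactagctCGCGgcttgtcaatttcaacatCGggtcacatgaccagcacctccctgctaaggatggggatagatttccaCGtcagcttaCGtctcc
Hoxa13: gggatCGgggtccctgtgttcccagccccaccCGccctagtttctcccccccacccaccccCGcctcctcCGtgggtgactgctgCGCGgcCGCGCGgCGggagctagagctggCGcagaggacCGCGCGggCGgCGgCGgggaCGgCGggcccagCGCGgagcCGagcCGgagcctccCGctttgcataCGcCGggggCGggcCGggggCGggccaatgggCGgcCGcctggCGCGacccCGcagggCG
Hoxd11: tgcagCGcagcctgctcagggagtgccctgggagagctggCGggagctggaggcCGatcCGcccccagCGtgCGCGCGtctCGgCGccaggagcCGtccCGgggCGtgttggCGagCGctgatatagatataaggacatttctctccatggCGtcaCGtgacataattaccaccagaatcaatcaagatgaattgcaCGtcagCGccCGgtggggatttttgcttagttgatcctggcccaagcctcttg
Hoxd12: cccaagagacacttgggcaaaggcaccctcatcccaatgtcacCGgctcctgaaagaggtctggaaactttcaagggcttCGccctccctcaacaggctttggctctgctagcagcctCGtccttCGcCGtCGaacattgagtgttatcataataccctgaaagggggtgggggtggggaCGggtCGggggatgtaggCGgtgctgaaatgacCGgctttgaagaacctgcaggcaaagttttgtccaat
The Hoxa11 stretch held 13 CpGs, the Hoxa13 stretch 35, the Hoxd11 stretch 20 and the Hoxd12 stretch 10. The same stretch before the upstream start of Hoxd11 (chr2:74679308-74679557) held 2 CpGs. The silent gene thus had more CpGs than its expressed neighbour in cluster A, whereas in cluster D the Hoxd12 count lay between those of the 2 Hoxd11 starts.

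RefSeq promoter windows of 300 bases, 250 before and 50 after the start, were matched for 22 of the 39 Hox genes, with 24 windows in all. Of cluster B only Hoxb1, Hoxb4 and Hoxb8 were matched, and of cluster C only Hoxc4, so the figures mostly describe clusters A and D. The median was 14.5 CpGs per Hox window, with a range of 4 to 45, compared with 7 over all 32851 windows. It was 14 in the 19 windows of genes with a mean of at least 1 TPM and 29 in the 5 windows of genes below 1 TPM. The letters CCAAT, read on either strand, were present in 15 of 24 Hox windows (62.5%) and in 37.4% of all windows. TATAAA was present in 4 (16.7%) and in 13.6% of all windows, and GGGCGG in 10 (41.7%) and in 35.7% of all windows. Such matches describe letters in a window and not bound sites.

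Cluster D lies on chr2:74668225-74765142, and 6 of its 9 genes reached a mean of 1 TPM. Hoxd10, known from lumbar motor neurons, had 24.8, 28.0, 31.3 and 90.3 TPM in the DMSO libraries and 32.9, 62.8, 71.0 and 69.7 TPM in the DOX libraries. Hoxd11, which with Hoxa11 patterns the forearm and the kidney, had 22.1, 32.2, 17.3 and 83.5 TPM in the DMSO libraries and 14.3, 35.5, 27.6 and 17.8 TPM in the DOX libraries. Hoxd9 had 16.9, 25.4, 16.8 and 21.5 TPM in the DMSO libraries and 18.0, 22.4, 27.4 and 30.1 TPM in the DOX libraries. DMSO 20 had the most Hoxd10 and Hoxd11, whereas Hoxd9 was the steadiest of the Hox genes, with a 1.79-fold range. Hoxd3, which shapes the first neck vertebrae, had 5.43, 24.4, 2.84 and 1.46 TPM in the DMSO libraries and 2.91, 8.33, 12.4 and 6.36 TPM in the DOX libraries. Hoxd4, its neighbour, had 3.06, 19.6, 1.48 and 1.1 TPM in the DMSO libraries and 1.21, 5.84, 11.7 and 3.24 TPM in the DOX libraries. Both were highest in DMSO 5 and lowest in DMSO 20, and their ranges of 16.8-fold and 17.8-fold were the widest among Hox genes with 10 or more counts in every library. The annotated spans of Hoxd3 and Hoxd4 overlap, as do those of Hoxd10 and Hoxd11, so reads between the members of each pair could be split either way. Hoxd1 had 0 to 33 counts per library, and the digit gene Hoxd13 had 9 counts in DMSO 15, 2 in DOX 21 and 0 in the others.

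Cluster B lies on chr11:96194316-96368254, and 8 of its 10 genes reached a mean of 1 TPM. Hoxb7 had 81.0, 102, 25.3 and 20.5 TPM in the DMSO libraries and 60.4, 76.0, 58.0 and 42.6 TPM in the DOX libraries. Hoxb2, a hindbrain patterning gene at the anterior end of the cluster, had 64.4, 85.9, 24.8 and 78.5 TPM in the DMSO libraries and 49.4, 68.4, 35.7 and 34.1 TPM in the DOX libraries. Hoxb9 had 23.5, 36.3, 12.8 and 27.7 TPM in the DMSO libraries and 32.4, 20.5, 6.94 and 11.3 TPM in the DOX libraries. DMSO 5 was highest for all 3 genes. Hoxb6 had 27.8, 53.9, 6.57 and 0.0248 TPM in the DMSO libraries and 23.0, 30.9, 11.8 and 11.6 TPM in the DOX libraries. The value of DMSO 20 was 1 count, in a library that had 794 counts of the neighbouring Hoxb7. Hoxb3 had 9.24, 24.8, 3.75 and 6.17 TPM in the DMSO libraries and 3.62, 11.2, 4.55 and 4.53 TPM in the DOX libraries. Hoxb5 had 5.12, 19.5, 1.97 and 5.54 TPM in the DMSO libraries and 3.70, 11.6, 4.03 and 3.60 TPM in the DOX libraries. Hoxb4, a gene of haematopoietic stem cell expansion, had 2.96, 10.8, 1.84 and 2.77 TPM in the DMSO libraries and 1.89, 3.98, 2.60 and 2.05 TPM in the DOX libraries. These 3 genes were highest in DMSO 5, followed by DOX 12. The spans of Hoxb3 and Hoxb4 overlap. Hoxb1, which sets the identity of a hindbrain segment, had at most 3 counts, and Hoxb13, the gene of the prostate and the tail end, had 0 counts in all 8 libraries.

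Hoxb8 stood out as a dip between expressed neighbours. Its values were 0.868, 1.46, 0.495 and 1.89 TPM in the DMSO libraries and 1.38, 1.52, 0 and 0.495 TPM in the DOX libraries. Its mean of 1.01 TPM compared with 58.2 TPM for Hoxb7 and 21.4 TPM for Hoxb9. The microRNA miR-196, which is encoded inside Hox clusters, is known to cleave Hoxb8 mRNA at a site of near-complete pairing. The mature sequences from RefSeq, with the seed (bases 2 to 8) in capitals, and the matching site in the mouse transcript Hoxb8-201 of GENCODE vM21 (transcript positions 2208 to 2229), with the bases that face the seed in capitals, are shown for this reason.
miR-196a-5p: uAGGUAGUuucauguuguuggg
miR-196b-5p: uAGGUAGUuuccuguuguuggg
Hoxb8 site: cccaacaacaugaaACUGCCUa
Of the 22 bases of miR-196a-5p, 21 could pair with the Hoxb8 site in Watson-Crick fashion and 1 as a G:U pair; for miR-196b-5p the numbers were 20 and 1. The exact seed match ACUACCU occurred in 11 of 39 Hox genes (28.2%) and in 16.7% of 21877 protein-coding genes, and Hoxa7 carried 4 copies. The 11 genes ranged in mean level from 0.0129 TPM (Hoxb1) to 58.2 TPM (Hoxb7), and Hoxa9 and Hoxb6 were among them. The best miR-196a-5p sites of Hoxa9, Hoxb6 and Hoxb7 had 13, 10 and 12 Watson-Crick pairs, against 21 at the Hoxb8 site. The miR-10 seed match ACAGGGU occurred in 7 of 39 Hox genes (17.9%) and in 20.4% of all. Reads over the Mir196b hairpin, which lies between Hoxa9 and Hoxa10 (mature arms within chr6:52230094-52230150), came to 4.89, 13.1, 8.20 and 18.1 TPM in the DMSO libraries and 4.07, 16.9, 58.9 and 14.2 TPM in the DOX libraries. These poly-A libraries do not measure mature microRNA, and the part of miR-196 in the level of Hoxb8 was not tested.

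Cluster C lies on chr15:102921131-103036856 and was the lowest of the 4 clusters, with 4.40% to 12.8% of the Hox TPM. Hoxc10, known from the lumbar region, had 13.9, 16.9, 29.1 and 25 TPM in the DMSO libraries and 16.6, 28.3, 29.2 and 24.3 TPM in the DOX libraries. Hoxc6 had 4.90, 7.14, 15.4 and 19.1 TPM in the DMSO libraries and 9.07, 12.3, 23.0 and 16.3 TPM in the DOX libraries. Hoxc8, which acts in brachial motor neurons, had 3.26, 7.27, 12.1 and 19.3 TPM in the DMSO libraries and 5.81, 7.37, 27.4 and 9.45 TPM in the DOX libraries. DMSO 3 was lowest for all 3 genes, and DOX 19 was highest. Hoxc9, a thoracic motor neuron gene, had 4.54, 7.46, 11.3 and 19.2 TPM in the DMSO libraries and 5.52, 10.1, 11.3 and 8.20 TPM in the DOX libraries. Hoxc4 had 0.599, 1.41, 2.13 and 0.662 TPM in the DMSO libraries and 0.8, 1.8, 0.266 and 1.39 TPM in the DOX libraries. Hoxc11, the group 11 member of the cluster, had 0.606, 0.803, 0.831 and 0 TPM in the DMSO libraries and 0.511, 0.719, 4.24 and 0.523 TPM in the DOX libraries. Hoxc11 passed a mean of 1 TPM through DOX 19 alone, and Hoxc12 had 1 count in DOX 12 and 0 elsewhere. Hoxc5 averaged 0.707 TPM. At a mean of 1 TPM, the last expressed gene was thus of group 11 in clusters A, C and D, through DOX 19 in the case of cluster C, and of group 9 in cluster B, which has no member between 9 and 13.

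The clusters did not rise and fall together from library to library. Cluster B summed to 215, 334, 77.6 and 143 TPM in the DMSO libraries and 176, 224, 124 and 110.3 TPM in the DOX libraries. Cluster A summed to 166, 266, 262 and 377 TPM and to 172, 339, 372 and 304 TPM. Cluster B exceeded cluster A in DMSO 3, DMSO 5 and DOX 9 and was below it in the other 5 libraries. Its share of the Hox TPM was 35.6% and 35.0% in DMSO 3 and DMSO 5, 31.1% in DOX 9 and 13.8% in DMSO 15. With 1 transcript per gene its share was 47.2%, 45.8%, 41.1% and 19.0% in the same 4 libraries. Cluster C summed to 28.2, 42.1, 72.2 and 85.4 TPM in DMSO and 39.1, 62.1, 95.4 and 61.9 TPM in DOX libraries, so the 3 libraries with the most cluster B relative to cluster A had the least cluster C. Cluster D summed to 195, 312, 152 and 294 TPM and to 178, 273, 262 and 237 TPM.

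**Figure D3:**
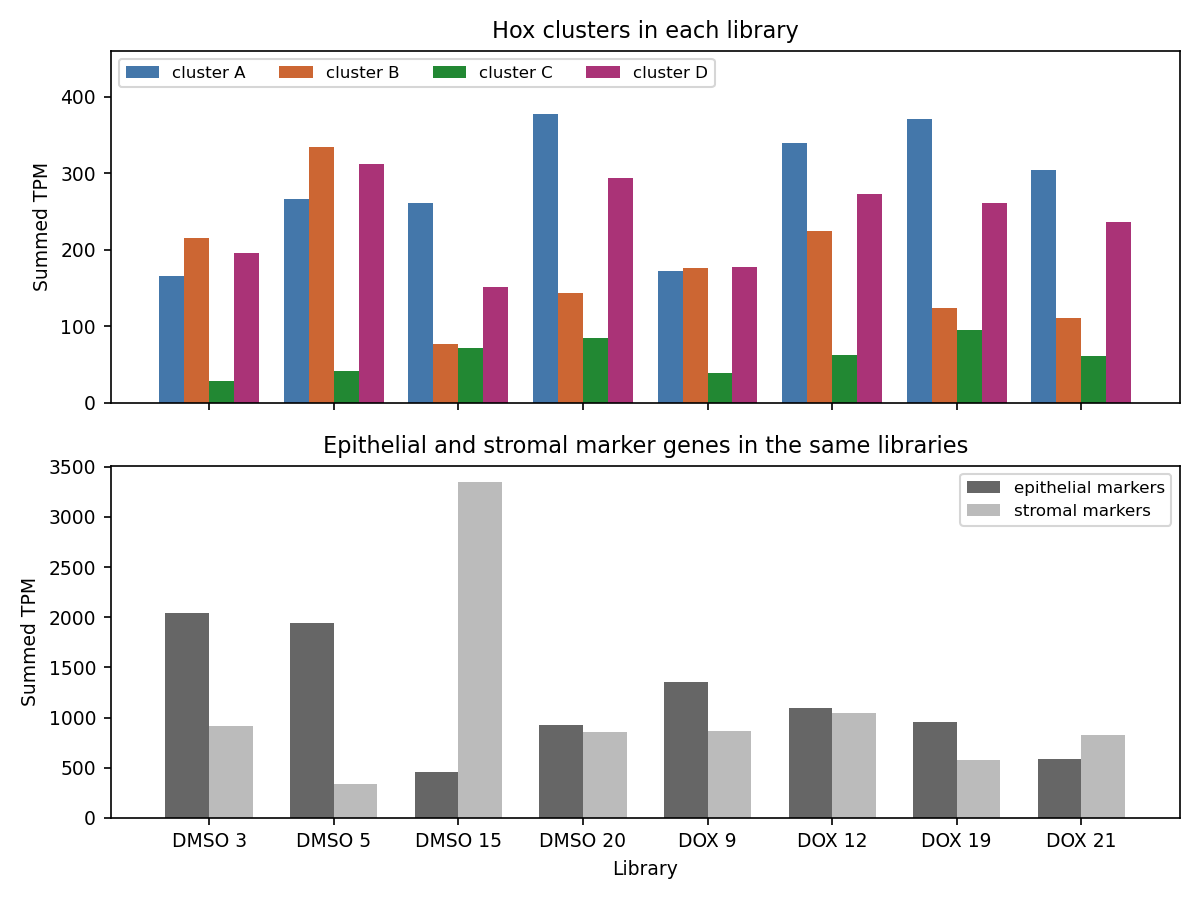
Upper panel, TPM summed over the genes of each Hox cluster in each library; lower panel, TPM summed over 6 epithelial and 10 stromal marker genes in the same libraries. DMSO 15 has the lowest cluster B (77.6 TPM) and epithelial (453 TPM) sums and the highest stromal sum (3344 TPM).

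Markers of epithelium were summed beside cluster B. The sum of the 6 epithelial markers was 2041, 1938, 453 and 926 TPM in DMSO and 1356, 1092, 951 and 586 TPM in DOX libraries. The 4 libraries with the most cluster B were also the 4 with the most epithelial RNA on this scale, and DMSO 15 was lowest for both. With 1 transcript per gene DMSO 15 was again lowest for both, but DOX 19 (914 TPM) passed DOX 12 (900.0 TPM) in the epithelial sum, while cluster B was 122 TPM in DOX 19 and 219 TPM in DOX 12. The sum of 8 ureteric and collecting duct markers (Ret, Gata3, Wnt11, Wnt9b, Wnt7b, Aqp2, Calb1 and Krt19) was 1014, 906, 286 and 624 TPM in DMSO and 662, 349.8, 504 and 329 TPM in DOX libraries. Of these, Aqp2 was at 0 in 7 libraries and Wnt9b in DMSO 20 and DOX 19. The sum of 10 stromal markers was 915, 337, 3344 and 859.9 TPM in DMSO and 865, 1048, 581 and 825 TPM in DOX libraries, and Col1a1 and Acta2 were highest in DMSO 15. The part of cell composition in the balance of the clusters was not tested. In bulk RNA, fewer cells of a type and less RNA per cell cannot be told apart.

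Over the 24 Hox genes that had 10 or more counts in all 8 libraries, the highest library exceeded the lowest by a median of 4.47-fold, compared with 2.77-fold over 11540 genes that met the same minimum. The ratio was above that of the median gene for 18 of the 24. Among cluster B genes with a mean of at least 1 TPM, DMSO 5 was the highest library for 7 of 8 in TPM and for 5 of 8 in normalised counts. Of the 6 such genes in cluster C, DMSO 3 was the lowest library for 4 and DOX 19 the highest for 4 in TPM, and each for 3 in normalised counts. Those with DOX 19 highest include Hoxc11, which passed a mean of 1 TPM through DOX 19 alone, so that case was fixed by the filter. In all, 5 genes with at least 10 counts in each of the other 6 libraries were at 0 in DMSO 20, among them Hoxa2, Hoxa4, Hoxc5 and Hoxc11. DMSO 20 had counts for 27 Hox genes and DOX 19 for 30, compared with 34 to 36 in the other libraries, and the part of the lower gene detection in these 2 libraries was not tested.

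**Figure D4:**
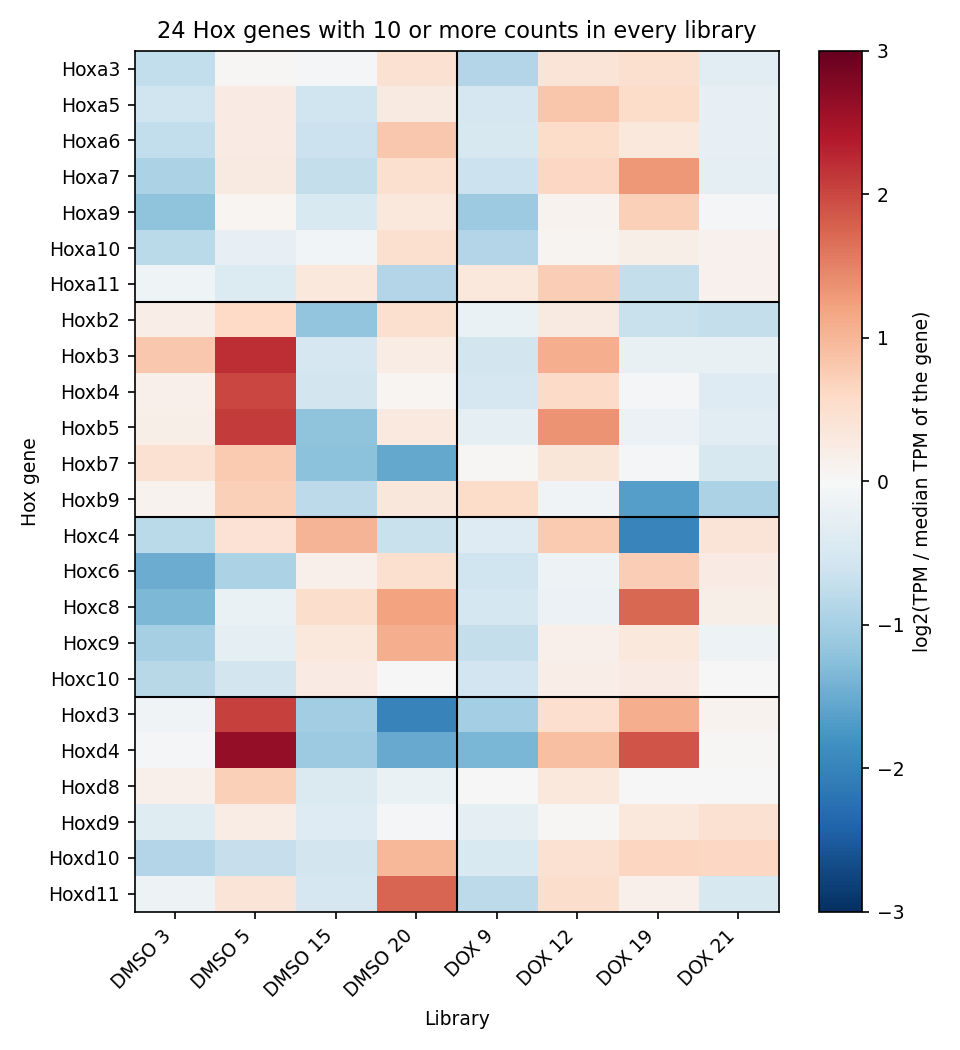
Level of each of the 24 Hox genes with 10 or more counts in every library, as log2 of TPM over the median TPM of that gene; columns are the 8 libraries (DMSO left, DOX right of the line) and rows are grouped by cluster. Most cluster B genes are red in DMSO 5 and blue in DMSO 15, most cluster C genes are blue in DMSO 3, and no block of colour follows the line between the groups.

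The comparison of DOX with DMSO asked whether inducing Cre in Pkd2 floxed cells changed Hox expression within days. No Hox gene passed the threshold of adjusted p no higher than 0.05 together with a 1.5-fold change. DESeq2 called 0 of the 33 Hox genes with an adjusted p, against 0.147% of the 17011 genes tested. The edgeR quasi-likelihood test also called 0 of 33, against 0% of 15562 genes. At an unadjusted p under 0.05, DESeq2 had 1 of the 33 Hox genes with an adjusted p, against 4.67% of the 19268 genes with any p. That base is wider: Hoxa13, Hoxb1, Hoxc12 and Hoxd13 also had a p, none under 0.05, but no adjusted p. The companion lists below are counted in the same way. At that threshold edgeR had 0 of 33, against 3.06%. The normalised counts of the DOX and DMSO libraries were apart for 0 of the 34 Hox genes whose mean count reached 2, and for 2.71% of the 17633 such genes in all. The smallest DESeq2 adjusted p was 0.910, for Hoxc13, and the others were 0.999. The remaining 6 genes had no adjusted p. Hoxa13, Hoxb1, Hoxb13, Hoxc12 and Hoxd13 had fewer than 10 counts in every library, and Hoxc11 was set aside by the Cook filter, which screens genes in which 1 library dominates.

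Of the 33 genes, 13 had a positive and 20 a negative log2 fold change, with a median of -0.04, and over all genes tested the median was -0.07, with 55.6% negative. Hoxc13, known from hair and nails, had 14, 36, 6 and 154 counts in DMSO and 12, 27, 0 and 2 counts in DOX libraries. Its log2 fold change was -2.99 (SE 1.47), with a DESeq2 p of 0.0419 before and 0.910 after adjustment, and edgeR gave an unadjusted p of 0.0908. DMSO 20 held most of the counts, the log2 fold change without it was -1.21, and the ranges of both groups overlapped. For Hoxa10 the group means were 16780.0 ± 5439 normalised counts with DMSO and 16380.0 ± 4954 with DOX, a log2 fold change of -0.04 (SE 0.353). The 95% interval of the Hoxa10 log2 fold change ran from -0.73 to 0.66. Hoxd8 and Hoxd9 had the narrowest intervals, -0.60 to 0.38 and -0.26 to 0.71.

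**Figure D5:**
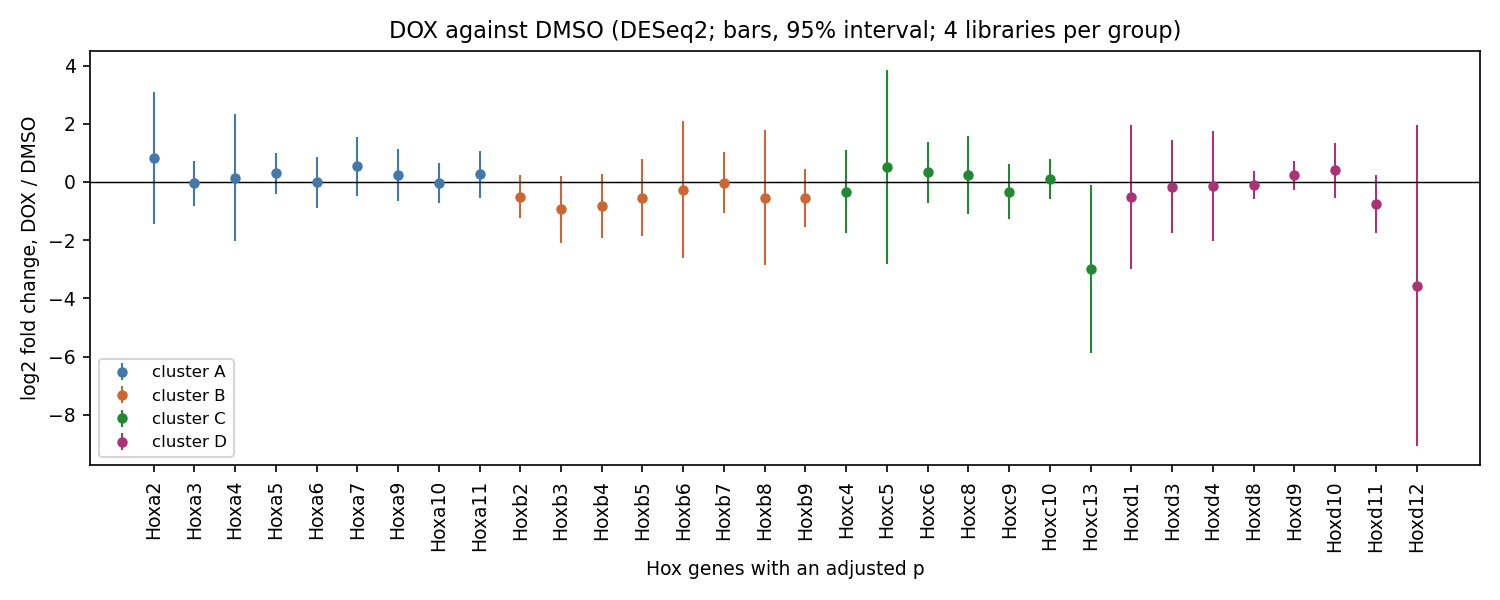
Log2 fold change of DOX over DMSO for 32 of the 33 Hox genes with a DESeq2 adjusted p, in chromosome order by cluster (points, estimates; bars, 95% intervals; 4 libraries per group). The 8 cluster B genes all have DESeq2 estimates below 0 (in limma-voom Hoxb6 and Hoxb7 lie above 0), and the interval of Hoxc13 is the one that does not cross 0, with an adjusted p of 0.910.

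By cluster, all 8 tested genes of cluster B had negative DESeq2 estimates, with a median of -0.54 and a range of -0.94 to -0.03, but limma-voom gave 1.56 for Hoxb6 and 0.22 for Hoxb7. Without DMSO 5, the estimates of Hoxb5, Hoxb6 and Hoxb7 were 0.26, 0.49 and 0.28, and those of Hoxb3 and Hoxb4 shrank to -0.30 and -0.11. Hoxb3 averaged 1484 ± 1123 normalised counts with DMSO and 774 ± 359 with DOX, a log2 fold change of -0.94 (SE 0.586). Hoxb2 averaged 4257 ± 1564 normalised counts with DMSO and 3003 ± 727 with DOX, a log2 fold change of -0.50 (SE 0.381). Neither passed the test (DESeq2 adjusted p = 0.999 for each). The 6 epithelial markers also had estimates below 0, with a median of -0.45. Without DMSO 3 or DMSO 5 that median was -0.10 or -0.14. The medians of other cell lists were -0.83 over 7 ureteric and collecting duct, -0.61 over 6 nephron progenitor, -0.66 over 4 proximal tubule, -1.65 over 3 immune, 0.34 over 6 urothelial, 0.21 over 5 endothelial and 0.11 over 2 neural crest and glial markers. Without DMSO 5 the ureteric median was -0.01 and the nephron progenitor median 0.01. The urothelial median was -0.50 without DOX 21, the endothelial -0.22 without DMSO 20 and the neural crest and glial -0.17 without DMSO 15. Those of proximal tubule and immune markers stayed negative whichever library was left out. The median of 10 stromal markers was -1.02, and 0.13 without DMSO 15. The part of cell composition in the cluster B estimates was not tested. In cluster A, 7 of 10 estimates were positive, with a median of 0.25. In cluster C, 4 of 7 were positive, and in cluster D 6 of 8 were negative. Among the group 11 genes of the kidney, Hoxa11 had a log2 fold change of 0.26 (SE 0.419) and Hoxd11 one of -0.75 (SE 0.510), which was -0.12 without DMSO 20. Hoxd10 had 0.40 (SE 0.482). Without DMSO 20, which had the most Hoxd10 of any library, the log2 fold change of Hoxd10 was 0.94 (DESeq2 adjusted p = 0.373).

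None of the companion genes was called either, by DESeq2 or by edgeR. TALE cofactors, the DNA-binding partners of Hox proteins, were all expressed, with a mean of at least 1 TPM for 9 of 9. The most abundant was Meis3, with a mean of 134 TPM, and Meis2 followed with 94.1 TPM. With 1 transcript per gene the means were 33.05 TPM for Meis3, 15.07 for Meis2, 14.74 for Pbx3 and 13.92 for Meis1. At an unadjusted DESeq2 p under 0.05 there were 2 of 9, 1 higher and 1 lower with DOX, against 4.67% of all genes, and edgeR also had 2 of 9, against 3.06%. Pknox1 had the smallest p of the list, with a log2 fold change of 0.49 (SE 0.203) and a DESeq2 adjusted p of 0.763. Pknox1 had 11.5, 20.1, 19.0 and 18.9 TPM in the DMSO libraries and 23.9, 28.7, 26.6 and 23.3 TPM in the DOX libraries, and its DOX libraries lay above its DMSO libraries. Over the companion lists together, the normalised counts of the groups were apart for 5 of the 82 genes with a mean count of 2 or more, against 2.71% of all such genes. Of these, 3 were higher with DOX (Pknox1, Phc2 and Rxrb) and 2 were lower, among them Gmnn.

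Chromatin regulators of the clusters had counts in every library, apart from Cbx8 of the Polycomb list, which was at 0 TPM in DMSO 20. All 9 genes of the trithorax list had a mean of at least 1 TPM, led by Ash2l at 126 TPM and Men1 at 92.8 TPM. With 1 transcript per gene the means were 41.6 TPM for Ash2l, 24.6 for Wdr5 and 21.9 for Men1. Ash2l and Men1 are parts of histone methyltransferase complexes. Rbbp5, of the same complexes, had the smallest p, with a log2 fold change of 0.38, an SE of 0.178 and a DESeq2 adjusted p of 0.868, the 1 of 9 at an unadjusted DESeq2 p under 0.05 (edgeR 0 of 9). All 15 genes of the Polycomb list had a mean of at least 1 TPM, led by Phc2 at 426 TPM and Rnf2 at 64.7 TPM, members of the repressive complex that ubiquitinates histone H2A. With 1 transcript per gene the mean of Phc2 was 120.5 TPM and that of Rnf2 was again 64.7 TPM. Phc2 had 294, 314, 309 and 460.1 TPM in the DMSO libraries and 497, 551, 518 and 465 TPM in the DOX libraries. Every DOX library lay above every DMSO library, the log2 fold change was 0.49 (SE 0.182), and the DESeq2 adjusted p was 0.556. It was the 1 of 15 at an unadjusted p under 0.05 in DESeq2, and edgeR also had 1 of 15.

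Retinoic acid genes, whose products make, carry and sense the signal that opens the clusters, had 5 of 17 at an unadjusted DESeq2 p under 0.05, against 4.67% of all genes, and 3 of 16 in edgeR, against 3.06%. The most abundant were Aldh1a2, which makes retinoic acid, at 196 TPM and Dhrs3, which lowers it, at 191 TPM. With 1 transcript per gene Aldh1a2 was again at 196 TPM and Dhrs3 at 90.2 TPM. Crabp2, a carrier of retinoic acid, had the smallest p, with a log2 fold change of -1.52 (SE 0.603, adjusted p = 0.673), and it was -0.79 without DMSO 15, the library with the most stromal RNA. Stra6, the retinol uptake receptor, had -1.18 (SE 0.564), Aldh1a3 had -0.99 (SE 0.469) and Rdh10 had -0.76 (SE 0.380), and the receptor gene Rxrb had 0.43 (SE 0.215). Without DMSO 3, Rdh10 had -0.48, and without DOX 19, Rxrb had 0.27, whereas Stra6 reached -1.77 without DOX 9. The 4 negative and 1 positive of these had DESeq2 adjusted p between 0.673 and 0.943. The list's median was -0.56, with 12 of 17 negative. Of the caudal genes and axial signals, which act upstream of posterior Hox genes, 2 of 5 had an adjusted p. Gmnn, which binds Hox and replication proteins, averaged 34.4 TPM with a log2 fold change of -0.84 with an SE of 0.362 and a DESeq2 adjusted p of 0.806, and Gdf11, a signal of the tail end, averaged 1.16 TPM with 0.60 (SE 0.494).

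Among 10 kidney partners of the group 11 genes, 9 had a mean of at least 1 TPM. Itga8, an integrin of the metanephric mesenchyme, had the highest mean, with 45.7, 56.8, 22.4 and 167 TPM in the DMSO libraries and 86.8, 232, 122 and 140.5 TPM in the DOX libraries. Wt1 averaged 23.2 TPM. Ret, the receptor of GDNF, had the smallest p, with a log2 fold change of -1.55 with an SE of 0.748 and a DESeq2 adjusted p of 0.885. Its log2 fold change was -2.42 without DOX 12 and -0.97 without DMSO 5. It was the 1 of 10 at an unadjusted DESeq2 p under 0.05 (edgeR 0 of 10). Of 13 measured noncoding RNAs of the clusters, 6 had a mean of at least 1 TPM and 0 of 9 had an unadjusted DESeq2 p under 0.05 (edgeR 0 of 7). Hoxa11os, transcribed opposite to Hoxa11, had 17.1, 17.5, 21.1 and 5.80 TPM in the DMSO libraries and 18.5, 28.2, 17.0 and 18.1 TPM in the DOX libraries. It was lowest in DMSO 20, as Hoxa11 was, and since the library kit does not mark strand, reads of this pair cannot be told apart where they overlap. Mir196b, with the smallest p, had a log2 fold change of 1.09 with an SE of 0.883 and a DESeq2 adjusted p of 0.999. Without DOX 19 the log2 fold change of Mir196b was 0. Of 14 measured protein-coding neighbours of the clusters, the most abundant were Atp5g3 (mean 913 TPM) and Mtx2 (162 TPM), which flank cluster D, and Cbx5 beside cluster C had the smallest p, with a log2 fold change of -0.48 with an SE of 0.242 and a DESeq2 adjusted p of 0.943.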

How the data were processed

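RNA of 8 libraries (4 DOX, 4 DMSO) was poly-A selected, amplified with the Clontech SMART-Seq low-input kit, which does not mark strand, and sequenced with 4 libraries per flow cell lane. Which library ran in which lane is not given in the sources used here, so lane and group cannot be told apart. The authors aligned reads to mm10 (GRCm38) with STAR and counted them per RefSeq transcript on the BasePair platform, with featureCounts and DESeq2 also in the submitters' processing notes (versions and settings are not given in the sources used here). The deposited count values are raw reads per transcript, and a read in several isoforms appeared to be counted for each. The deposited FPKM values are counts scaled to transcript length and library size, and served here only to derive transcript lengths. The deposited TPM values, which the authors scaled to the same sum in every library, give the levels.

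Counts and TPM were summed by symbol over 33068 transcripts to 24063 genes, and 5 Hox genes had several transcripts. The 28 pairs of libraries differed by a chi-square of at least 328 per degree of freedom over genes, so no library is a copy of another. Separate preparations of the same culture could also differ this much, so independence was not shown. Each library was treated as 1 sample. The main test was the DESeq2 1.42.0 Wald test in R 4.3.3 over all genes, with the Cook filter, independent filtering at alpha 0.1, Benjamini-Hochberg adjustment, and calls at adjusted p no higher than 0.05 with a change of 1.5-fold or more, as in the study's methods. The edgeR 4.0.16 quasi-likelihood test and limma-voom (limma 3.58.1), TMM size factors, other filters, thresholds and scalings, 1 transcript per gene and leaving out libraries were alternatives. Each test was tested on simulated data. Tables were joined with pandas 2.3.3 and numpy 2.4.6. Intervals are estimate and standard error at 95%. Every Hox gene with a mean of at least 1 TPM or an unadjusted DESeq2 p of at most 0.05 is described singly, the rest by count and range, and each companion list by its 2 most abundant genes, the gene of smallest p and any called gene. A Hox gene and a TALE cofactor are not reported here by name and are included in the counts and sums only. Other genes named in the text were chosen after their values were seen. The members and lists were chosen with earlier results of these data known. Promoter and microRNA sequences are those of RefSeq, and the Hoxb8 site is that of GENCODE vM21. Total counts of 63922677 to 102716313 per library include the repeated isoform counts.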

Additional observations from a re-analysis of the deposited data

Results flagged for a closer look

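In 8 of 62 groups of 4 libraries, the highest or lowest library lay far from the other 3 on the log2(TPM + 0.1) scale. For normally distributed values chance gives about 1 in 20, or 3.1. The share over all genes was not counted, so the 8 cannot be read as an excess particular to Hox genes. The values below are the gap to the nearest library divided by the range of the group. DMSO 20 was the low library for Hoxa2 (0.84), Hoxa4 (0.908) and Hoxc11 (0.876), each at 0 TPM, against 0.992 to 1.62, 1.24 to 1.65 and 0.606 to 0.831 TPM in the other DMSO libraries. DOX 9 was the low library for Hoxa10 (0.921), with 98.6 against 194 to 206 TPM, and for Hoxd10 (0.84), with 32.9 against 62.8 to 71.0 TPM. DOX 12 was the high library for Hoxb5 (0.904), with 11.6 against 3.60 to 4.03 TPM, and for Hoxd8 (0.907), with 138 against 109 to 111 TPM. DOX 19 was the high library for Hoxc11 (0.85), with 4.24 against 0.511 to 0.719 TPM. Hoxc11 reached a mean of 1 TPM through DOX 19 alone, so this flag repeats that value and is no separate result.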

How the results depend on the processing

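No Hox gene was called in any alternative run, and 28 to 30 reached 1 TPM when 1 library was left out. Over all genes, 25 were called by DESeq2, 0 by edgeR (476 at an unadjusted p under 0.05), 0 by limma-voom, 48 with the Cook filter off, 40 at an adjusted p of 0.1, 51 without DMSO 20 and DOX 19 and 14 to 75 without 1 library. Total Hox TPM was 755 (DMSO) and 757 (DOX), 545 and 554 with 1 transcript per gene, and 1009 in both when scaled without the 100 most counted genes. For 30 genes and 18 alternatives, 487 of 540 log2 fold changes kept their direction, 53 reversed, and 12 genes reversed in none. The runs with the Cook filter off, independent filtering off or an adjusted p of 0.1 share the main fold changes. They could not reverse any direction, so the 487 includes agreement that was fixed in advance. The cause of the reversals was not tested. Without DMSO 20 and DOX 19, in DESeq2 and then in edgeR (the latter chosen after seeing the data), the values were -0.04 and -0.06 for Hoxa2, -0.18 and -0.21 for Hoxa4, 0.20 and 0.17 for Hoxa6, 0.05 and 0.03 for Hoxa10, 0.17 and 0.15 for Hoxb8, -0.15 and -0.17 for Hoxc8, and -0.51 and -0.53 for Hoxc11, and edgeR gave -0.00 for Hoxc10. In limma-voom, Hoxa6 was 0.07, Hoxb6 1.56, Hoxb7 0.22, Hoxd3 0.15 and Hoxd4 0.06. With 1 library left out, ranges that crossed 0 were -0.29 to 0.15 for Hoxa3, -0.26 to 0.53 for Hoxa4, -0.17 to 0.30 for Hoxa6, -0.13 to 0.47 for Hoxa9, -0.18 to 0.16 for Hoxa10, -1.0 to 0.26 for Hoxb5, -0.67 to 0.49 for Hoxb6, -0.31 to 0.29 for Hoxb7, -0.60 to 0.22 for Hoxc4, -0.55 to 0.62 for Hoxc8, -0.57 to 0.03 for Hoxc9, -0.03 to 0.39 for Hoxc10, -0.11 to 1.68 for Hoxc11, -0.58 to 1.02 for Hoxd3, -0.93 to 1.37 for Hoxd4 and -0.23 to 0.07 for Hoxd8. No paired analysis was possible because the library numbers are not shared between the groups. Intervals rest on 4 libraries a group.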

Other observations

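Some Hox genes had an unadjusted DESeq2 p under 0.05 only when a library was left out, and none passed adjustment. Without DMSO 15, the log2 fold change of Hoxb2 was -0.74 (DESeq2 adjusted p = 0.189) and that of Hoxb3 was -1.20 (DESeq2 adjusted p = 0.503). Without DOX 12, Hoxb3 had -1.32 (DESeq2 adjusted p = 0.849), but without DMSO 5 it had -0.30. Without DOX 9, Hoxb9 had -1.07 (DESeq2 adjusted p = 0.725). Without DMSO 20 and DOX 19, Hoxd1 had -1.74 (DESeq2 adjusted p = 0.508) and Hoxd10 had 0.82 (DESeq2 adjusted p = 0.589).

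Markers of other cells were also read in the 8 libraries. The sum of 6 nephron progenitor markers was 16.4, 44.4, 13.4 and 27.9 TPM in DMSO and 9.76, 38.5, 12.1 and 12.6 TPM in DOX libraries. The sum of the immune markers was 15.9, 29.5, 17.3 and 26.0 TPM in DMSO and 12.2, 11.5, 0.0068 and 4.31 TPM in DOX libraries, and none of these genes was called by DESeq2 or edgeR.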
